A study of Homo sapiens with 2 samples.

Results

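The 10 genes GREB1, TFF1, TFF3, PDZK1, AREG, IGFBP4, CCND1, SLC9A3R1, STC2 and NRIP1 are induced by estrogen in breast cancer cells, and their mRNAs were followed here in an RNA immunoprecipitation (RIP) experiment. They were chosen by name, and all 10 were found among the 18781 genes of the deposited table. The cells were T47D, a wild-type line of luminal breast cancer that expresses the estrogen receptor. They were grown in DMEM with 10% fetal bovine serum and antibiotics, and the labels name no estrogen, antiestrogen or hormone withdrawal, so the estrogen response itself was not compared. Lysate was incubated for 4 h with protein A beads that carried either an antibody against IMP1 or normal IgG. IMP1, the product of IGF2BP1, binds mRNAs and affects their localization, stability and translation. RNA that stayed on the beads was sequenced, with 1 library for each antibody. No difference described here therefore has a replicate check, no test between the antibodies was made, and neighbours in an order of levels cannot be told apart from each other by replicate error. Levels are given in FPKM, the number of fragments of a gene relative to its length and to library size.

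Estrogen acts through estrogen receptor alpha (ESR1), a nuclear receptor that binds DNA at estrogen response elements, often beside the pioneer factors FOXA1 and GATA3, and recruits coactivators or corepressors. The genes it induces in luminal cells code for secreted peptides and growth factors, for scaffold proteins of the apical membrane, for cyclin D1 and for cofactors of the receptor itself. A RIP library measures how much of each mRNA stayed with the antibody, which depends both on its amount in the lysate and on its retention, and the amount in the lysate was not analysed here.

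Both libraries held the markers of the luminal line. All 12 luminal markers were listed, with 12 of them at 1 FPKM or more with the IMP1 antibody and 11 with IgG. Of these, 7 were at least 2-fold higher with the IMP1 antibody and 0 were lower, against 39.9% and 29.9% of all genes. The 7 include TFF3, which is also 1 of the 10 estrogen-responsive genes and was listed at 0 with IgG. KRT18, a keratin of simple epithelia, had 143 FPKM with the IMP1 antibody and 25.8 FPKM with IgG, and EPCAM, an epithelial adhesion molecule, had 48.4 and 55.1 FPKM. The IgG library also held RNA of genes that mark other cells. Of 14 mesenchymal markers listed, 13 were at least 2-fold lower with the IMP1 antibody, against 29.9% of all genes. The summed level of the 14 was 5.77 FPKM with the IMP1 antibody and 243 FPKM with IgG. DCN, LUM, ZEB2, SPARC, COL1A2 and PDGFRB were listed at 0 with the IMP1 antibody, and none of the 14 was listed at 0 with IgG. FN1, which codes for fibronectin, had 1.30 FPKM with the IMP1 antibody and 79.7 FPKM with IgG, and ACTA2, a smooth muscle actin, had 2.36 and 7.79 FPKM. Of 10 blood cell markers chosen, 7 had no row (PTPRC, CD3E, CD79A, LYZ, HBB, HBA1 and TYROBP). The 3 that were listed were all at least 2-fold lower, against 29.9% of all genes. Their summed level was 6.79 FPKM with the IMP1 antibody and 327 FPKM with IgG, of which CD74 had 6.42 and 305 FPKM. The part of these differences in the results below was not tested. Fewer cells of a type, less RNA per cell and less RNA kept on the beads cannot be told apart in such libraries. The IgG library listed 38.7% of all genes at 0, and the IMP1 library listed 6.40% at 0.

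The mRNAs of 6 estrogen-responsive genes (TFF3, TFF1, PDZK1, STC2, SLC9A3R1 and IGFBP4) were more abundant by at least 2-fold in the IMP1 precipitate than with IgG, those of 2 (GREB1 and AREG) were less abundant by at least 2-fold, and CCND1 and NRIP1 lay between. These calls use the log2 ratio of (FPKM + 0.1) with the IMP1 antibody over (FPKM + 0.1) with IgG. For low genes above 0 in both libraries, this scale gives a smaller difference than the plain ratio. For genes listed at 0, the size of the ratio rests on the 0.1 FPKM added and can be too large or too small. By the same rule 39.9% of all 18781 genes were higher and 29.9% were lower, which is the background for 6 of 10 and 2 of 10. Of the 7488 higher genes, 5681 were listed at 0 with IgG, and the picture changed for genes measured in both precipitates. For 6909 genes that reached 1 FPKM in each library, 11.5% were higher and 44.0% were lower, while of the 7 estrogen-responsive genes in this class 3 were higher and 2 were lower. The median log2 ratio of the 7 was 0.95, and that of the 6909 genes was -0.78. A median above that of the 6909 genes was not particular to the 7. In the same class the luminal markers had a median of 1.08, with 6 of 11 higher and 0 lower. Breast secretory products, described below, had 0.71, with 3 of 7 higher and 0 lower. A wider list of other estrogen-induced genes, also described below, had -0.26. Over all 10 genes the median was 1.47, against 0.40 over all genes. The summed level of the 10 genes was 331 FPKM with the IMP1 antibody and 145 FPKM with IgG.

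**Figure D1:**
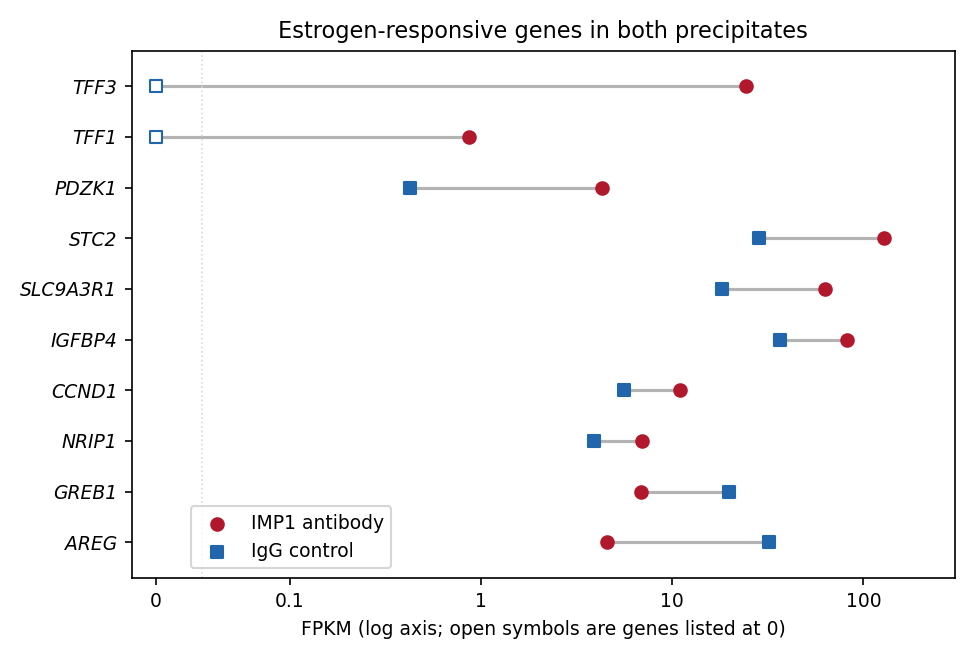
The plot gives the FPKM of each estrogen-responsive gene on a log axis, with 1 library for each antibody (circles for the IMP1 antibody, squares for IgG) and open symbols for genes listed at 0. The circle lies to the right of the square for 8 genes, and to the left for GREB1 and AREG.

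Secreted products gave both the highest and the lowest ratios. STC2 (ENSG00000113739), a secreted glycoprotein of the stanniocalcin family, was the most abundant of the 10 mRNAs in the IMP1 precipitate, with 128 FPKM there and 28.6 FPKM with IgG. The level with the IMP1 antibody was thus 4.46-fold that with IgG, a log2 ratio of 2.15, and 97.3% of the 6909 genes measured in both precipitates had a smaller ratio. Its relative STC1 went the other way, with 0.427 FPKM with the IMP1 antibody and 3.87 FPKM with IgG. IGFBP4 (ENSG00000141753), which binds insulin-like growth factors outside the cell, was next in abundance with 81.7 FPKM in the IMP1 precipitate and was the most abundant of the 10 with IgG, at 36.7 FPKM. Its ratio was 2.23-fold, or 1.15 on the log2 scale, just past the threshold.

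STC2 and IGFBP4 meet in the same pathway, since the protease PAPPA cleaves IGFBP4 and STC2 is known to inhibit PAPPA. PAPPA was among the 4 genes of the IGF axis with no row in the table, beside IGF1, IGFBP1 and IGFBP3. Of the 7 other genes of the axis that were listed, 5 were at least 2-fold higher with the IMP1 antibody and 2 were lower, against 39.9% and 29.9% of all genes. Among the 5, IGFBP6 (0.688 FPKM) and INSR (0.307 FPKM) were listed at 0 with IgG so that their ratios rest on the added 0.1 FPKM. IGFBP2 had 34.6 FPKM with the IMP1 antibody and 2.32 FPKM with IgG, and IGFBP5, named after its values were seen, had 144 and 17.0 FPKM. Both binding proteins thus had larger ratios than IGFBP4, with log2 values of 3.84 and 3.08. The growth factor receptor gene IGF1R had 15.2 and 4.96 FPKM, a log2 ratio of 1.60. IGF2R, which carries IGF2 to lysosomes, had 2.17 FPKM with the IMP1 antibody and 10.9 FPKM with IgG, and its log2 ratio was -2.27. The other lower gene was IGF2 itself, with 0.0432 and 0.836 FPKM, also named after its values were seen.

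The trefoil factors TFF1 and TFF3 are small secreted peptides that protect mucosal surfaces, and TFF1 is among the classical targets of the estrogen receptor. TFF3 (ENSG00000160180) had 24.4 FPKM in the IMP1 precipitate, and TFF1 (ENSG00000160182) had 0.869 FPKM. Both were listed at 0 with IgG, so that no fold difference can be given for either, and the size of their log2 ratios rests on the FPKM added. With 1 FPKM added in place of 0.1 FPKM, TFF3 still passed the threshold with a log2 ratio of 4.67. TFF1 then fell below it, to 0.90. The same zero stands for unlike levels. Of the 722 other genes within 1.5-fold of the level of TFF3 with the IMP1 antibody, 31 (4.29%) were listed at 0 with IgG, whereas 46.0% of the 2654 genes within 1.5-fold of the level of TFF1 were. Of the 7270 genes listed at 0 with IgG, only 27 had a higher level than TFF3 with the IMP1 antibody, and 2277 had a higher level than TFF1. Both genes belong to the trefoil factor cluster on chromosome 21, with 46.6 kb between their loci, and TFF2, the third gene of the cluster, had no row. The genes nearest to TFF3 in both libraries, by the distance on the log2(FPKM + 0.1) scale over 2 values, were PTGES (23.8 FPKM with the IMP1 antibody and 1.23e-05 FPKM with IgG), FOLR1 (23.1 FPKM and listed at 0) and HIST1H2AB (26.2 FPKM and listed at 0).

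AREG (ENSG00000109321), a ligand of the epidermal growth factor receptor that is shed from the cell surface, had the lowest ratio of the 10 genes. It had 4.55 FPKM in the IMP1 precipitate and 32.1 FPKM with IgG, so that the IgG level was 7.06-fold the IMP1 level, a log2 ratio of -2.79. Only 8.25% of the 6909 genes measured in both had a smaller ratio. The annotation holds a near-identical copy, AREGB, at 97.6 kb from AREG, and reads of both may be split between them. AREGB had 3.44 FPKM with the IMP1 antibody and 25.7 FPKM with IgG, and the summed values of both copies gave a log2 ratio of -2.84, so the direction does not depend on how reads were shared. Other ligands of the family differed from each other. EREG, the neighbour of AREG on chromosome 4 at 56.4 kb, had 0.117 FPKM with the IMP1 antibody and 2.98 FPKM with IgG, and HBEGF had 0.322 and 1.96 FPKM. These ligands, named after their values were seen, were the only 2 of 9 genes in the list of ERBB receptors and other EGF-family ligands that were at least 2-fold lower, and 2 others were higher, against 29.9% and 39.9% of all genes. The ligands TGFA and EGF, chosen likewise, did not pass the threshold in either direction, with log2 ratios of 0.29 and 0.57. Among the receptors, EGFR had 1.18 and 1.24 FPKM and ERBB3 had 9.63 and 2.26 FPKM. The genes nearest to AREG over both libraries were HOXB2, with 4.61 FPKM with the IMP1 antibody and 31.8 FPKM with IgG, LINC00998, with 4.46 and 32.9 FPKM, and TSNAX, with 4.65 and 33.6 FPKM.

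The scaffold genes PDZK1 and SLC9A3R1 were both higher in the IMP1 precipitate. They code for proteins with PDZ domains that hold transporters and receptors at the apical membrane, and SLC9A3R1 (also named NHERF1) links them through ezrin to actin. PDZK1 (ENSG00000174827) had 4.28 FPKM with the IMP1 antibody and 0.428 FPKM with IgG. Its level with the IMP1 antibody was 10.0-fold that with IgG, the largest ratio among the 8 genes that were above 0 in both precipitates. The log2 ratio with 0.1 FPKM added was 3.05. With 1 FPKM added it was 1.89, below the 2.12 of STC2, so PDZK1 then no longer had the largest ratio of the 8. The pseudogenes PDZK1P1 and PDZK1P2 had 0.834 and 1.26 FPKM with the IMP1 antibody and were listed at 0 with IgG. With their values added to PDZK1, the log2 ratio with 0.1 FPKM added was 3.62. SLC9A3R1 (ENSG00000109062) had 63.2 FPKM with the IMP1 antibody and 18.2 FPKM with IgG, which is 3.48-fold. Its locus in the table is shared with RAB37 and with a pair of rows named MIR3615, which had 32.9 and 8.82 FPKM with the IMP1 antibody and were listed at 0 with IgG. How reads were divided among these overlapping rows is not given in the sources used here. Of the 9 listed relatives, ERM proteins and cargo of these scaffolds, 1 was at least 2-fold higher and 5 were lower, against 39.9% and 29.9% of all genes. The higher one, SLC34A1, had 0.155 FPKM with the IMP1 antibody and was listed at 0 with IgG. SLC9A3R2, the closest relative of SLC9A3R1, had 10.5 and 6.31 FPKM, and EZR, which codes for ezrin, had 7.40 and 4.04 FPKM, so neither passed the threshold. RDX, which codes for the ERM protein radixin, had 9.35 FPKM with the IMP1 antibody and 22.4 FPKM with IgG. PDZK1IP1, a small membrane protein that binds PDZK1, was named after its values were seen and lay opposite to PDZK1, with 0.906 FPKM with the IMP1 antibody and 20.3 FPKM with IgG.

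CCND1 (ENSG00000110092) codes for cyclin D1, which activates CDK4 and CDK6 in the G1 phase. It had 10.9 FPKM in the IMP1 precipitate and 5.62 FPKM with IgG, which is 1.94-fold. Its log2 ratio of 0.95 did not reach the threshold, although 87.8% of the genes measured in both precipitates had a smaller ratio. The table gives it the same locus as ORAOV1, a neighbouring gene that had 2.84 FPKM with the IMP1 antibody and 6.98 FPKM with IgG. Of the 11 listed partners, inhibitors and targets of cyclin D1, 3 (27.3%) were at least 2-fold higher and 4 (36.4%) were lower, against 39.9% and 29.9% of all genes. The higher ones, named after their values were seen, were E2F1, with 3.73 and 0.0878 FPKM, CDK2, with 7.58 and 0.686 FPKM, and CCNE1, with 0.324 FPKM with the IMP1 antibody and listed at 0 with IgG. CCND3, which codes for another D-type cyclin, had 4.49 and 2.75 FPKM, the largest ratio among genes of this list at 1 FPKM or more in both. CDK4 had 24.0 FPKM with the IMP1 antibody and 81.3 FPKM with IgG, and its log2 ratio was -1.76. The inhibitor CDKN1B had the smallest ratio of this list, with 3.08 and 39.4 FPKM. CCNE2, a cyclin that acts after cyclin D1 and was also chosen after its values were seen, had 5.91 and 6.35 FPKM.

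**Figure D2:**
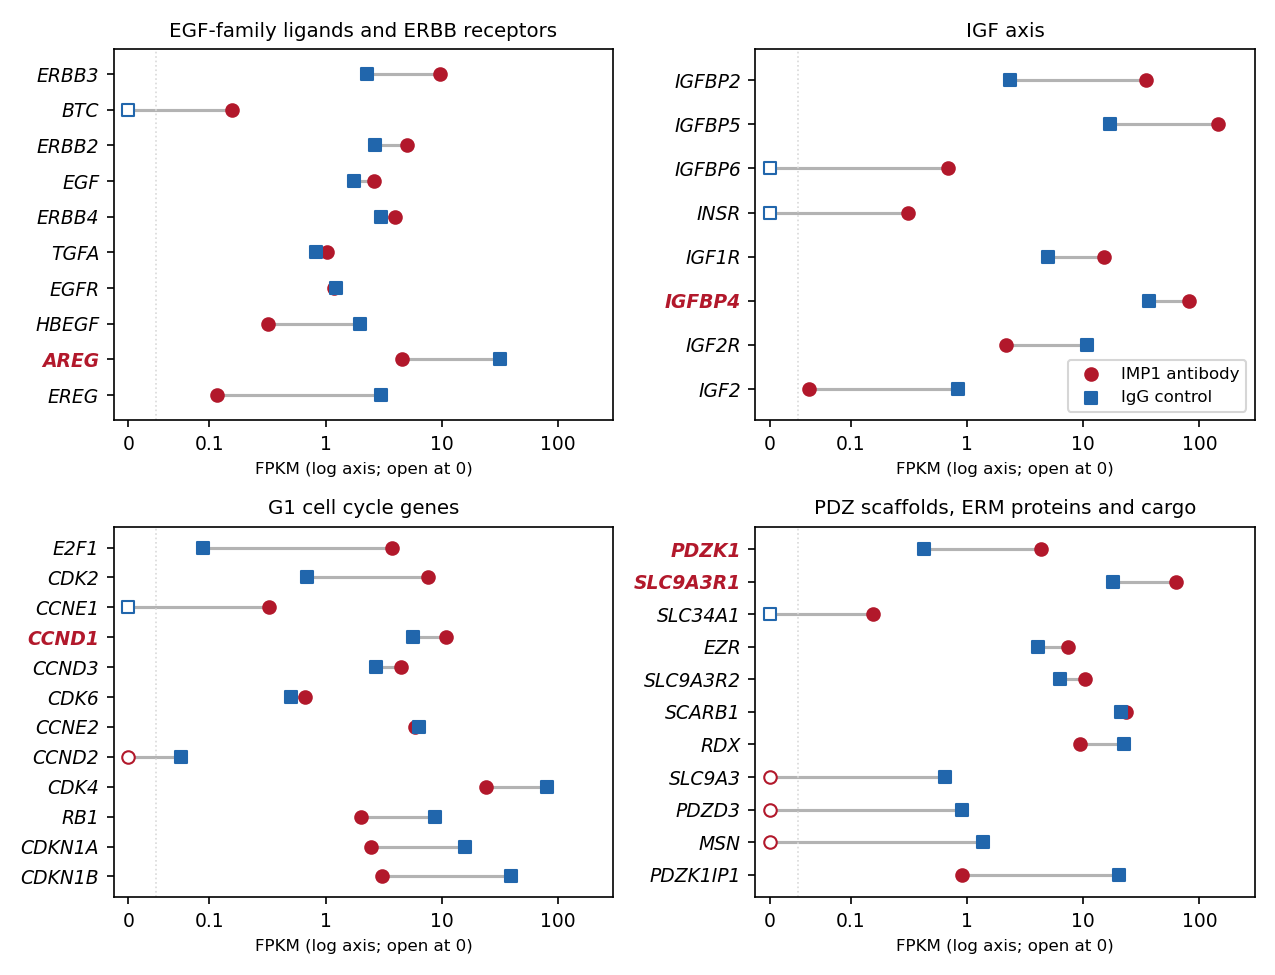
Each panel gives the FPKM (log axis, 1 library for each antibody, open symbols at 0) of an estrogen-responsive gene, in bold red, among genes of its pathway, ordered from the highest to the lowest log2 ratio. AREG lies near the bottom of its panel beside EREG and HBEGF, while PDZK1 and SLC9A3R1 lie at the top of theirs.

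The cofactor genes NRIP1 and GREB1 differed in direction. NRIP1 (ENSG00000180530) codes for a nuclear receptor cofactor that represses transcription, and GREB1 (ENSG00000196208) codes for a chromatin-bound cofactor of the estrogen receptor. NRIP1 had 6.98 FPKM with the IMP1 antibody and 3.89 FPKM with IgG, which is 1.80-fold and does not reach the threshold. GREB1 had nearly the same level as NRIP1 with the IMP1 antibody, at 6.85 FPKM, but 19.9 FPKM with IgG, so that the IgG level was 2.91-fold the IMP1 level. Its log2 ratio was -1.53, and 30.3% of the genes measured in both precipitates had a smaller ratio. Both genes share their locus with another row whose level was higher with IgG. AF127577.10 in the locus of NRIP1 had 5.66 FPKM with the IMP1 antibody and 16.3 FPKM with IgG, and RN7SL674P, a pseudogene of 7SL RNA in the locus of GREB1, had 7.68 and 73.6 FPKM. Whether reads of these rows entered the values of NRIP1 or GREB1 was not tested. GREB1L, the relative of GREB1, had 0.748 FPKM with the IMP1 antibody and was listed at 0 with IgG.

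The order of the genes changed between the precipitates. With the IMP1 antibody it was STC2, IGFBP4, SLC9A3R1, TFF3, CCND1, NRIP1, GREB1, AREG, PDZK1 and TFF1. With IgG it was IGFBP4, AREG, STC2, GREB1, SLC9A3R1, CCND1, NRIP1 and PDZK1, followed by TFF1 and TFF3 at 0. AREG and GREB1 were thus among the 4 most abundant of the 10 with IgG and among the 4 least abundant with the IMP1 antibody. IGFBP4 and STC2 stayed among the first 3 in both.

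In positions of hg19, the build named by the submitters, STC2 lies on chromosome 5 from 172741716 to 172756506 and IGFBP4 on chromosome 17 from 38599702 to 38613983. TFF3 lies on chromosome 21 from 43731777 to 43735761, TFF1 on chromosome 21 from 43782391 to 43786703 and AREG on chromosome 4 from 75310851 to 75320726. PDZK1 lies on chromosome 1 from 145726918 to 145764074. The loci of the other 4 genes hold further rows and run from 72666717 to 72765492 on chromosome 17 for SLC9A3R1, from 69455855 to 69490184 on chromosome 11 for CCND1, from 16333556 to 16437321 on chromosome 21 for NRIP1 and from 11674242 to 11782914 on chromosome 2 for GREB1.

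RefSeq promoter windows in GRCh38.p14, which run from 250 bases before to 50 bases after a gene's start, were matched for 6 of the 10 genes, with 9 windows in all (AREG, IGFBP4, NRIP1, PDZK1, STC2, and SLC9A3R1 under its current symbol NHERF1). GREB1, TFF1, TFF3 and CCND1 were not matched. The palindromic estrogen response element GGTCANNNTGACC was in none of the 9 windows and in 0.0570% of all 35116 windows. Its single arm GGTCA, searched on both strands, was in 4 of the 9 windows and in 37.4% of all windows. These windows belong to 3 of the 6 genes (PDZK1, STC2 and NRIP1), against 42.6% of all genes with a window. The windows of PDZK1 overlap and hold the same arm. Every response element holds the arm on each strand, so the searches overlap. The forkhead letters TGTTTAC, also searched on both strands, were in none of the 9 windows and in 3.42% of all windows. A match is a description of the letters, and these windows leave out distant elements. The 250 bases before the start are shown for STC2, the most abundant of the 10 mRNAs with the IMP1 antibody, for PDZK1, with the largest ratio among genes above 0 in both precipitates, and for AREG, with the smallest ratio. They are written 5′ to 3′ on the gene's strand, with GGTCA in capitals. The window of STC2 has the arm after the start, from base 24, which is outside the bases shown. The arm of PDZK1 begins at base -68, and AREG has none.
STC2 (chr5:173328415-173328664, minus strand): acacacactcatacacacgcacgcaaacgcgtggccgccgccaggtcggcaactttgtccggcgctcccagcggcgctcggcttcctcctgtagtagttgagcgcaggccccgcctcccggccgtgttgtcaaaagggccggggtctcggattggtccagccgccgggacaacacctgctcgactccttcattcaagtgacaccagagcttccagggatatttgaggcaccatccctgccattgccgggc
PDZK1 (chr1:145707401-145707650, minus strand): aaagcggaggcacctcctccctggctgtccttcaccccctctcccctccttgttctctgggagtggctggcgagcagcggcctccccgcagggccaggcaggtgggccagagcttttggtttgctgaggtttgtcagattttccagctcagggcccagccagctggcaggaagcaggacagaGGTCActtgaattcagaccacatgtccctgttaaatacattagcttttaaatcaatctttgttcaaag
AREG (chr4:74444886-74445135, plus strand): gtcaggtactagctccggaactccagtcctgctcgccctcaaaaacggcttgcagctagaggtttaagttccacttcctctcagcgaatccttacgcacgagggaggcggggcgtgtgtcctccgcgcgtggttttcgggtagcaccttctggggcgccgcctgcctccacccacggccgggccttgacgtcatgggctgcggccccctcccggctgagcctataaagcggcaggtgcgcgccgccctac
The share of G and C in these stretches was 63.6% for STC2, 55.6% for PDZK1 and 65.2% for AREG, against a median of 58% over all windows.

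In the FPKM as deposited, without rescaling, the receptor gene itself had nearly the same level in both precipitates. ESR1 had 9.60 FPKM with the IMP1 antibody and 9.04 FPKM with IgG, and its log2 ratio was 0.09, and FOXA1 had 33.6 and 29.2 FPKM. GATA3 had 53.7 and 21.6 FPKM, a log2 ratio of 1.31. Of the 16 genes of this list, 5 were at least 2-fold higher with the IMP1 antibody and 5 were lower (31.2% each), against 39.9% and 29.9% of all genes, with a median log2 ratio of -0.26. CARM1, a coactivator that methylates histones, had 3.20 and 1.46 FPKM. The genes with the smallest ratios among those at 1 FPKM or more in both were GPS2 and TBL1XR1, subunits of the corepressor complex of NCOR1, and the coactivator NCOA2. GPS2 had 6.68 FPKM with the IMP1 antibody and 48.7 FPKM with IgG, TBL1XR1 had 19.5 and 135 FPKM, and NCOA2 had 4.01 and 15.6 FPKM.

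A wider list of 52 other genes known to be induced by estrogen in breast cancer cells was described in the same way, and 51 were listed. With the IMP1 antibody 19 of them (37.3%) were at least 2-fold higher and 13 (25.5%) were lower, near the 39.9% and 29.9% of all genes. Their median log2 ratio was 0.36, and 10 of them were listed at 0 with IgG. Among the 34 at 1 FPKM or more in both precipitates, 6 (17.6%) were higher and 12 (35.3%) were lower, and the median was -0.26. PGR, the progesterone receptor gene and a classical target of the estrogen receptor, had 41.4 FPKM with the IMP1 antibody and 16.1 FPKM with IgG, and its log2 ratio was 1.36. Of the genes at 1 FPKM or more in both, the largest ratios were those of ANXA9, with 7.74 and 1.13 FPKM, CA12, a carbonic anhydrase of the cell surface, with 48.2 and 8.49 FPKM, and ESRP2, an epithelial splicing regulator, with 4.52 and 1.25 FPKM. The smallest were those of RBBP8, which acts in DNA end resection, with 7.74 and 103 FPKM, UGCG, a glucosylceramide synthase, with 12.0 and 70.7 FPKM, and FAM102A, with 7.24 and 40.2 FPKM. With log2 ratios from -3.71 for RBBP8 to 2.68 for ANXA9, this list reached past the 10 genes in both directions among genes measured in both precipitates.

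**Figure D3:**
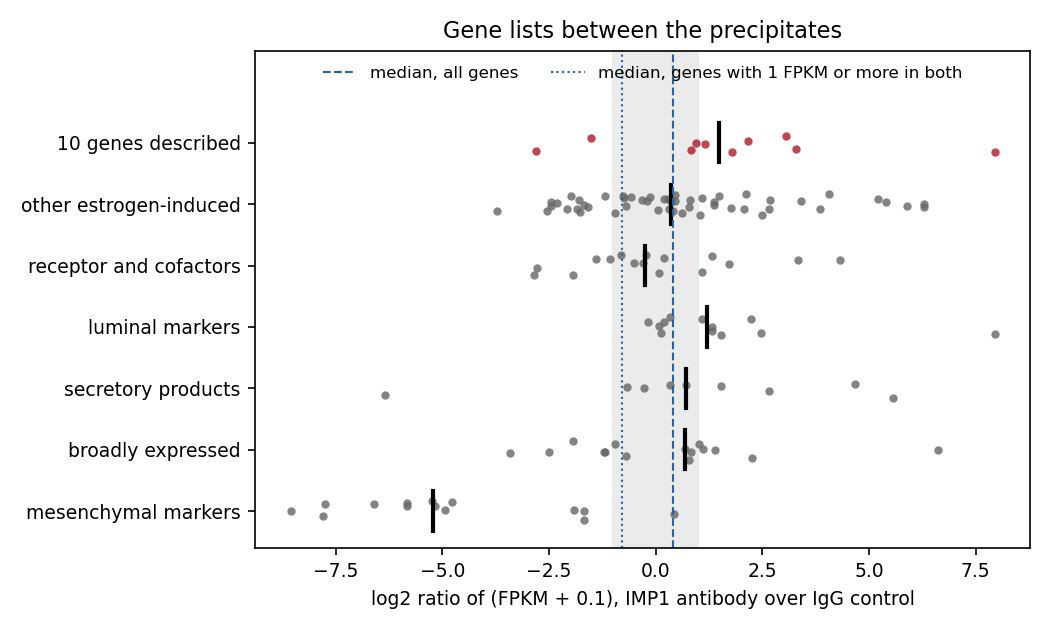
Each point is a gene, placed by the log2 ratio of (FPKM + 0.1) with the IMP1 antibody over IgG, and vertical bars are list medians (1 library for each antibody). The grey band marks less than 2-fold, and the medians are 1.47 for the 10 genes, 0.36 for the other estrogen-induced genes and -5.21 for mesenchymal markers.

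Products that breast epithelium secretes were also described, because 5 of the 10 genes code for secreted proteins. Of 9 such genes listed, 4 were at least 2-fold higher with the IMP1 antibody and 1 was lower, against 39.9% and 29.9% of all genes. PIP, the prolactin-induced protein, had 608 FPKM with the IMP1 antibody and 12.8 FPKM with IgG, a larger ratio than that of any of the 8 estrogen-responsive genes above 0 in both. AZGP1 had 13.8 and 22.2 FPKM. Broadly expressed genes, which are used as references, were spread to both sides, with 5 of 15 higher and 5 lower (33.3% each). TUBA1B had 245 FPKM with the IMP1 antibody and 51.2 FPKM with IgG, and B2M had 232 and 2474 FPKM.

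The directions depend on the scale on which the libraries are set beside each other. The FPKM values summed to 353885 with the IMP1 antibody and to 1298363 with IgG, and each rescaling tried raised the IMP1 values. Setting the median ratio of the genes measured in both to 1 is a log2 shift of 0.79 before 0.1 FPKM is added. Relative to that median gene, 8 of the 10 genes were at least 2-fold higher, CCND1 and NRIP1 with log2 ratios of 1.74 and 1.61, and only AREG was at least 2-fold lower, with -2.01. GREB1 was then at -0.74. With equal sums, a shift of 1.88, GREB1 changed direction to 0.33 and AREG was at -0.94, so that none was at least 2-fold lower. On that scale the median log2 ratio of the 6909 genes measured in both was 1.06, itself past the threshold. The shares of all genes past 2-fold were not counted under any rescaling, so these counts have no background beside them.

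**Figure D4:**
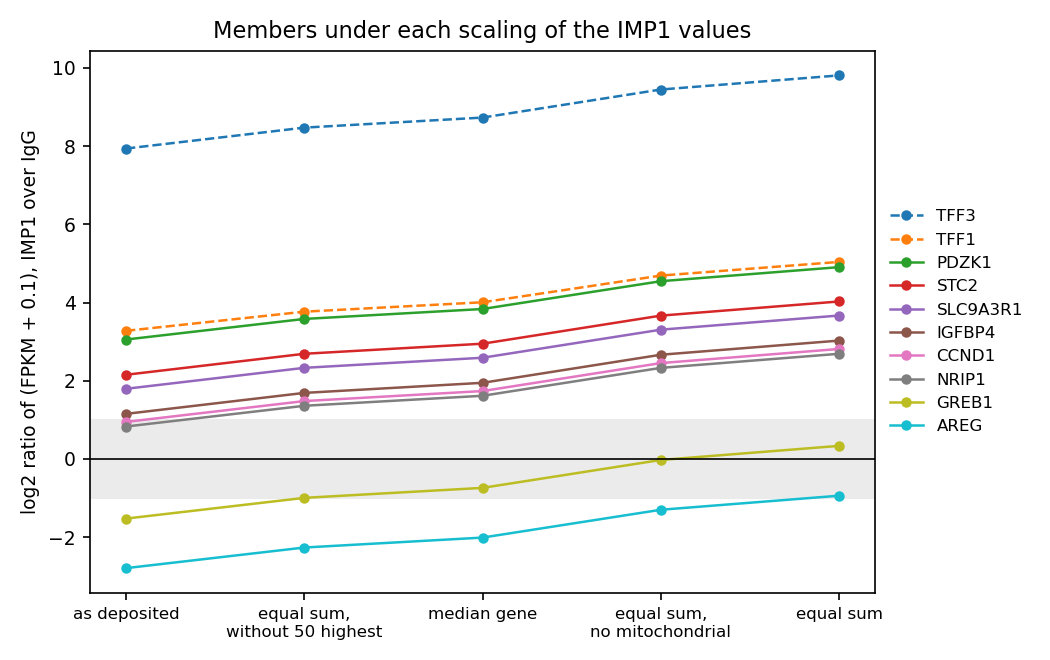
The plot gives the log2 ratio of (FPKM + 0.1) of each gene as deposited and under 4 rescalings of the IMP1 values, with dashed lines for TFF1 and TFF3, which are listed at 0 with IgG, and a grey band for less than 2-fold. GREB1 crosses from -1.53 to 0.33, while AREG stays below 0.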

How the data were processed

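RNA from 2 RIP libraries of T47D cells was analysed, 1 for the IMP1 antibody and 1 for normal IgG. The authors deposited a table with an FPKM value per gene and library, in which a zero is written as 1e-05 and was read as 0. The build is hg19 per the labels, and the aligner, the quantification software and the annotation are not given in the sources used here. The deposited table also holds the authors' own fold change, p-value and q-value, which were not used, nor were the lists selected with them. The labels give 4 h of incubation with the beads, while the methods of the study give overnight. A start position counts from 0 in the table, so 1 was added, after which 310 gene spans equalled those of RefSeq.

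The log2 ratio of (FPKM + 0.1) was taken for each of 18781 genes, and those that differed by 2-fold or more were counted. Values of 1 FPKM in both libraries marked genes measured in both. With 1 library per condition no test was run. The depth is unknown, because FPKM hold no read numbers. For loci of 1 to 3 kb that hold 1 row, the lower 5% bound of FPKM multiplied by locus length in kb was 0.0715 with the IMP1 antibody and 0.326 with IgG.

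The genes and lists were chosen with earlier results of these data known. Named are all 10 genes, PGR, ESR1, EGFR, IGF1R, CDK4, EZR and the closest relatives, the 3 largest and 3 smallest ratios of the wider estrogen-induced and receptor lists and the single largest and smallest of each other list (1 FPKM or more in both), and the 3 nearest genes of TFF3 and AREG, beside markers listed at 0 and genes said to be chosen after their values were seen. Promoter sequences are from RefSeq (GRCh38.p14). Alternatives were other pseudocounts, filters, thresholds and rescalings. The counting was run on simulated data for 18781 genes, and 100% of 200 genes changed 8-fold, well past the 2-fold threshold, were recovered. In the simulated data no gene was at 0, and the counting followed rescaling to the median gene. The recovery therefore does not cover genes listed at 0 or the counts on the deposited scale. Recovery of changes near the threshold was not tested, and wrong calls among unchanged genes are not reported. Python 3.11.15, numpy 2.4.6, pandas 2.3.3 and matplotlib 3.10.9 were used.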

Additional observations from a re-analysis of the deposited data

How the results depend on the processing

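Each antibody has 1 library, so no analysis without a replicate could be made. No paired analysis was possible because each group holds 1 sample and no test was run. Of the 10 genes, 6 were at least 2-fold higher, and this became 3 among genes at 1 FPKM or more in both libraries, because TFF1, TFF3 and PDZK1 have no such value with IgG. It lay between 4 and 8 under the other alternatives. The 2 lower genes became 1 at a threshold of 4-fold and after rescaling to the median gene, to equal sums without the 50 highest genes or to equal sums without mitochondrial genes, and 0 after rescaling to equal sums, where GREB1 turned to 0.33. The median log2 ratio of 1.47 became 2.27, 2.99 and 3.35 after rescaling to the median gene, to equal sums without mitochondrial genes and to equal sums. Of the 19 other estrogen-induced genes that were higher, 10 were left among genes above 0 in both libraries and 6 at 1 FPKM or more in both, and the number rose to 33 and 36 after rescaling to equal sums without and with mitochondrial genes. The 13 lower ones became 6 at 4-fold, 2 after rescaling to equal sums without mitochondrial genes and 1 with them. Each of these changes follows from the filter, threshold or scale of the alternative. Shares of all genes were counted for the main rule (39.9% higher and 29.9% lower) and at 1 FPKM or more in both libraries (11.5% and 44.0%). They were not counted under the other pseudocounts, filters, thresholds and rescalings, so those counts have no background beside them. The depth of both libraries is unknown, so no upper limit can be set on TFF1 and TFF3 with IgG. Summing near-identical copies, chosen after the data were seen, moved no count.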
